A study of Mus musculus with 18 samples.

Results

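Maternal immune activation was examined here in microglia sorted from mouse embryos at E17.5, by setting the arrays labelled LPS against the arrays labelled PBS. Arrays were chosen by label alone: 4 LPS and 4 PBS arrays, 8 of the 18 arrays of the series. In the LPS group the pregnant dam had been inflamed with lipopolysaccharide, a component of the outer wall of Gram-negative bacteria, and in the PBS group she had received phosphate-buffered saline. The labels give no dose, route or interval before harvest. All 8 arrays came from C57BL/6 embryos labelled wild type and of unknown sex. Hippocampi of the embryos of a dam were pooled, digested with trypsin and DNase, and sorted by flow cytometry for green fluorescence from the Cx3cr1 reporter, so that each array stands for cells pooled within a dam and not for single embryos. The sort has no second marker, and Cx3cr1 is also expressed by macrophages at the borders of the brain. Total RNA was amplified with a whole-transcriptome kit and hybridised to Affymetrix mouse genome arrays. Untreated wild-type arrays (UT, DAP12+/+) of the same age served as a further background, and the fit across all genes also used the DAP12-/- arrays. The design named the comparison of PBS with LPS as one of 2 comparisons of the study.

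The label of each array ends in a calendar year, whose meaning the labels do not state. The years with LPS and PBS arrays are called years 1, 2 and 3 here, in order of time. Year 1 holds the arrays labelled LPS3_2008 and PBS4_2008, year 2 holds LPS1_2010, LPS2_2010, PBS1_2010 and PBS2_2010, and year 3 holds LPS-3_2_2013 and PBS-2_2013, so that the LPS minus PBS difference could be formed inside each label year. Only year 2 had replicates within a group. Values are log2 intensities as deposited, 1 probe set a gene, and a difference of 1 on this scale is a 2-fold difference. A gene was tested where its mean passed a low-value filter, which left 11630 genes, and was called bright where its mean over the 8 arrays was 8 or more, which held for 5488 genes. Values of the 4 arrays of a group are listed below in the order year 1, year 2 replicate 1, year 2 replicate 2 and year 3.

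Lipopolysaccharide is sensed by the receptor TLR4 with its partners CD14 and MD-2, and the signal runs through NF-kB to cytokines and through interferon regulatory factors to type I interferon and the genes it induces. Microglia are the resident macrophages of the brain and settle there before birth. They are maintained by CSF1R and TGF-beta signalling, and they carry purinergic, complement and Fc receptors, several of which signal through the DAP12 adaptor encoded by Tyrobp.

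The 2 PBS arrays of year 2 stood apart from the other 6 in their cell type markers. The mean over 38 microglial identity genes was 11.43 and 11.48 in those 2 arrays, 12.64 and 13.21 in the PBS arrays of years 1 and 3, 12.40 to 13.21 in the LPS arrays and 13.15 to 13.35 in the 6 UT arrays. The mean over 29 neuronal genes was 10.71 and 10.76 in the PBS arrays of year 2, against 7.37 and 8.35 in the other PBS arrays, 6.94 to 9.16 in the LPS arrays and 6.10 to 7.80 in the UT arrays. LPS minus PBS of the neuronal mean was -0.43 in year 1, -1.63 in year 2 and -0.49 in year 3, with an exact two-sided permutation p of 0.0833 within label years, the smallest that the 24 arrangements allow. For the microglial mean the differences were -0.13, 1.09 and -0.00012, with an exact two-sided permutation p of 0.333. Endothelial and pericyte genes (-0.57, -1.22 and -0.69, 9 genes) and meningeal and fibroblast genes (-1.20, -1.93 and -0.36, 10 genes) were lower on average in the LPS array in every year. Other lists changed sign between years. These were radial glia and progenitor genes (-0.51, -1.90 and 0.21), astrocyte and oligodendrocyte genes (0.49, -1.97 and -0.24) and choroid plexus and ependymal genes (-0.23, -2.84 and 0.031). The median difference of the 29 neuronal genes was 0 in year 1, -1.46 in year 2 and -0.50 in year 3. Neural RNA therefore moved with the treatment label most in year 2, and its part in the differences of that year was not tested beyond a fit with the neuronal mean as a covariate. Xist, the RNA that coats the inactive X chromosome of female cells, was at 2.21 in both PBS arrays of year 2. It was between 12.01 and 13.62 in the other 6 arrays, and 1 of the 6 UT arrays was also at 2.21. The Y-linked genes Eif2s3y and Kdm5d read 10.66 and 10.68, and 9.69 and 11.67, in the PBS arrays of year 2. In the LPS arrays of year 2 they read 8.85 and 8.99, and 7.61 and 9.66. The Xist signal thus followed the treatment label in year 2, so sex makeup and treatment cannot be told apart in that year. In these bulk arrays fewer cells of a type and less RNA per cell cannot be told apart.

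**Figure D1:**
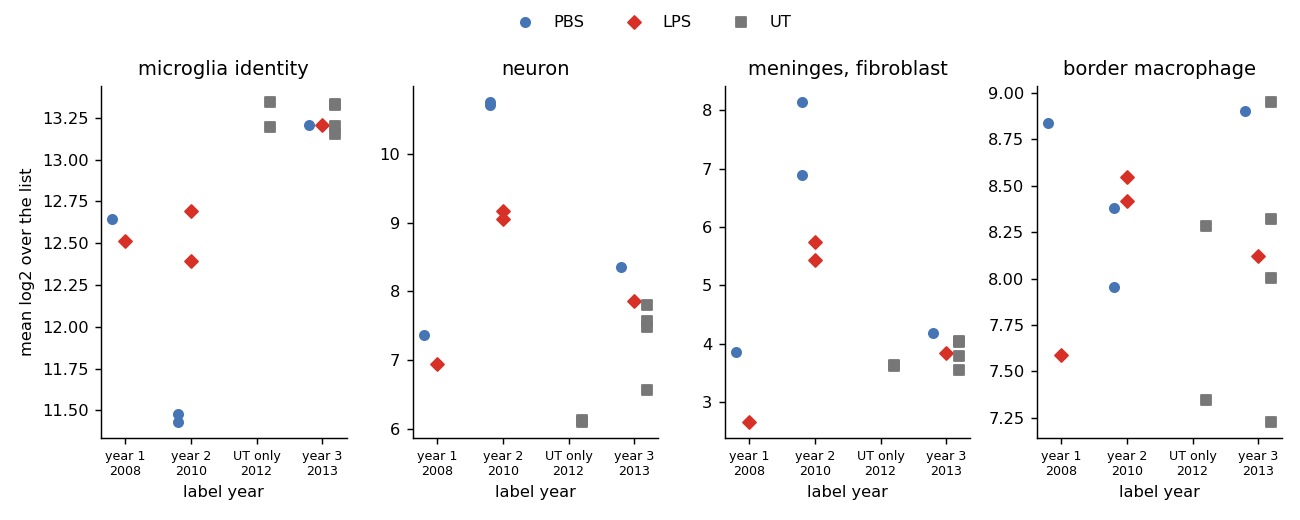
Mean log2 value over 4 marker lists (vertical axes) in each PBS, LPS and UT array by label year (horizontal axes); each point is 1 array, and 1 further label year holds UT arrays only. The 2 PBS arrays of year 2 lie lowest for microglial identity genes (11.43 and 11.48) and highest for neuronal genes (10.71 and 10.76).

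The response differed between the years for many genes, and most bright genes had no common direction. Of 5488 bright genes, 504 were higher in the LPS arrays in all 3 years (9.18%), 975 were lower in all 3 years (17.8%) and 4009 were mixed. Centring each array on its median, which moves the median difference over all tested genes from -0.12 to 0.15, turned that split to 1167 higher and 468 lower, and quantile normalization gave 740 and 686. The balance of higher against lower genes thus depends on the scaling, and directions below are relative to the deposited scale. A test of the difference between the 3 year-specific responses passed the threshold (limma F test with Benjamini-Hochberg adjusted p under 0.05) for 863 of 11630 tested genes (7.42%) and for 296 of the bright genes (5.39%). The differences of bright genes agreed in sign between year 1 and year 2 for 50.5% of genes, between years 1 and 3 for 50.6% and between year 2 and year 3 for 52.5%. Across these 5488 genes, which share the arrays and are not independent replicates, Pearson's r was 0.0080, 0.031 and 0.055 in the same order. The median absolute difference of a bright gene was 0.94 in year 1, 0.47 in year 2 and 0.49 in year 3.

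**Figure D2:**
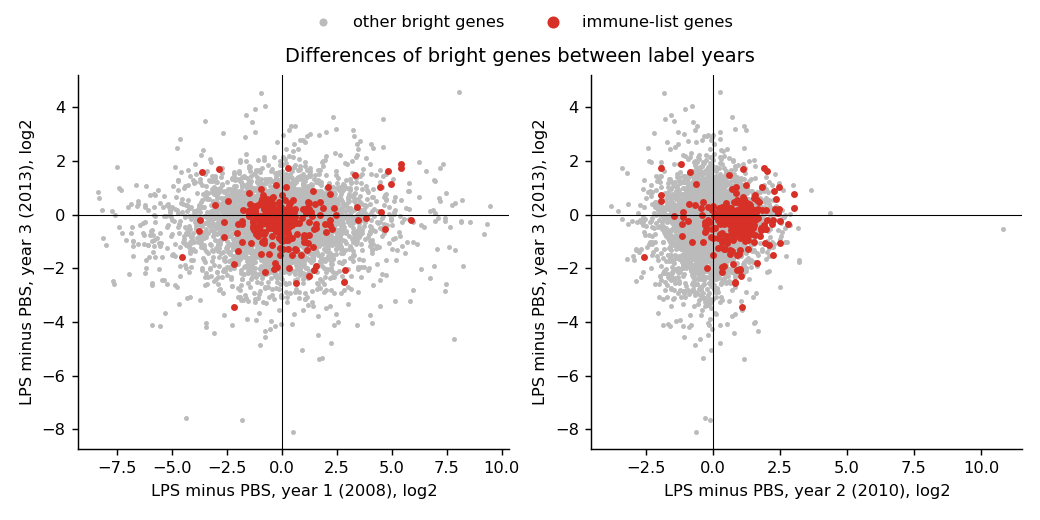
LPS minus PBS (log2) of the 5488 bright genes in year 3 (vertical axes) against year 1 (left) and year 2 (right); red points are the 285 bright genes of the immune lists and grey points all other bright genes. Neither panel shows the genes along a diagonal (r = 0.031 and 0.055), and most immune-list genes lie to the right of 0 on the year 2 axis.

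Among immune genes the higher direction was the more frequent one. The 20 immune lists held 285 bright genes, of which 42 were higher in LPS in all 3 years (14.7%, against 9.18% of all bright genes) and 10 were lower in all 3 years (3.51%, against 17.8%). Median centring gave 101 and 4, and quantile normalization 54 and 8. The excess rested on year 2: with only years 1 and 3 required to share a sign, 48 of the 285 were higher (16.8%) and 97 were lower (34.0%), beside 18.8% and 31.9% of all bright genes. In 34 of the 42 genes both LPS arrays of year 2 lay above both PBS arrays of year 2, as in 261 of the 504. These were 11.9% of the immune-list bright genes and 4.76% of all bright genes. The choice of genes with a year 2 difference above 0 favours both counts. None of the 42, and 12 of the 504 bright genes higher in every year, passed the limma test of a difference between years; a shared sign was the rule of choice, so nothing is read from these counts. All 4 LPS arrays lay above all 4 PBS arrays for 6 immune-list genes, and below them for 3, where the same held for 0.711% and 1.18% of all bright genes.

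**Figure D3:**
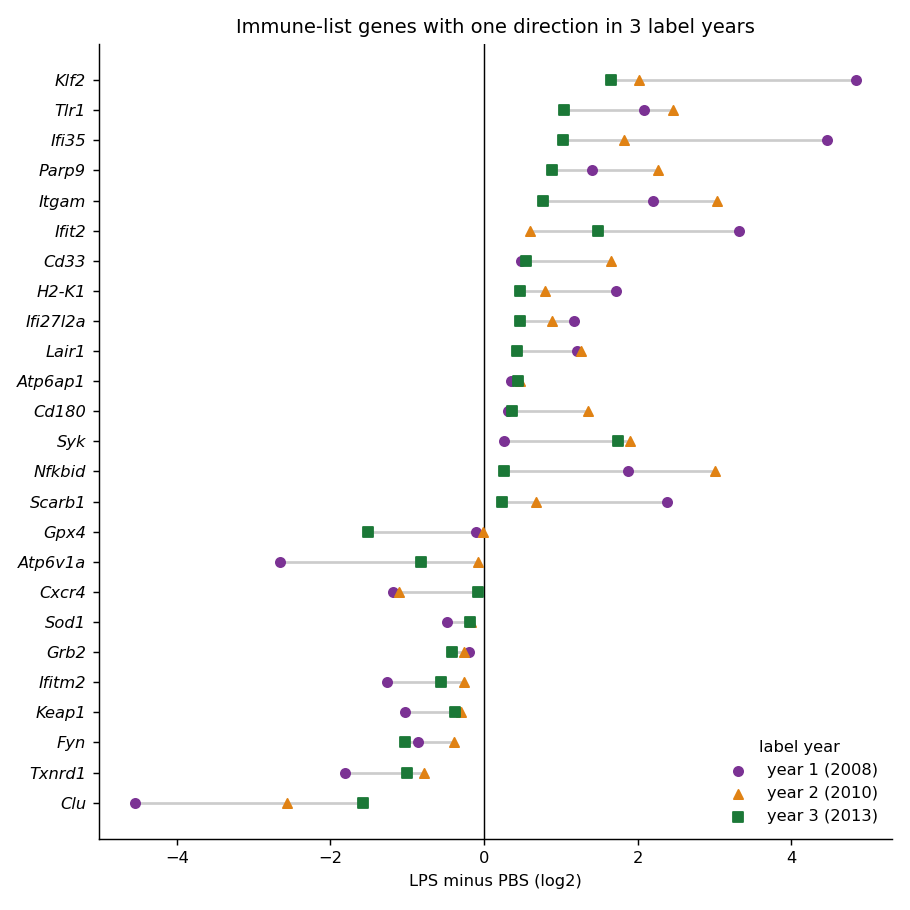
LPS minus PBS (log2, horizontal axis) in year 1, year 2 and year 3 for the 15 bright immune-list genes with the largest smallest difference above 0 and for the 10 with all 3 differences below 0. Each point is 1 year's difference and the grey line spans the 3 years. Klf2 has the largest smallest difference (1.65, in year 3) and Clu the most negative (-1.58, in year 3).

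Klf2, a transcription factor that restrains inflammatory activation of macrophages and is induced as an early response gene, stood first among the immune genes. Klf2 read 11.71, 9.13, 9.17 and 9.34 in the LPS arrays and 6.86, 7.46, 6.80 and 7.69 in the PBS arrays. Every LPS array was above every PBS array. The year 3 LPS array was also above the 4 UT arrays of that year (7.03 to 8.98), where the year 3 PBS array lay within them. Over all 6 UT arrays, however, Klf2 reached 10.54, above the LPS arrays of years 2 and 3. The differences were 4.85 in year 1, 2.02 in year 2 and 1.65 in year 3, and the combined difference was 2.63 ± 0.55 (SE, 4 against 4 arrays; limma adjusted p = 0.0894). With the 3 years weighted equally, in the fit with a mean for each group and year, the difference was 2.84. Klf2 was named for its differences in the 3 years, so this value is no separate support.

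Receptors that sense bacterial products were higher in part. Of 32 tested genes of lipopolysaccharide recognition, 22 had a combined difference above 0 and 10 below, none passed the limma threshold (0.0086% of all tested genes passed it higher and 0.086% lower), and the list median was 0.31 against -0.12 over all tested genes. The list medians were 0.11 in year 1, 0.63 in year 2 and -0.28 in year 3, so that the sign was not shared. Tlr1, which pairs with TLR2 to bind bacterial lipopeptides, read 11.29, 10.40, 9.44 and 11.998 in LPS and 9.21, 9.01, 5.91 and 10.96 in PBS. Its differences were 2.08, 2.46 and 1.04 (combined 2.01 ± 0.53, limma adjusted p = 0.169), and within each year every LPS array was above every PBS array although the groups overlapped across years. The year 3 LPS array lay above the 4 UT arrays of year 3 (11.08 to 11.71) and the year 3 PBS array below them. Cd180, a TLR4-related receptor that modulates lipopolysaccharide signalling, had differences of 0.31, 1.36 and 0.36. Tlr4 itself read 9.56, 10.71, 10.21 and 12.15 in LPS and 9.56, 9.28, 8.50 and 11.41 in PBS, with differences of 0.00076, 1.58 and 0.74. The year 1 pair was level. Both other probe sets of Tlr4 were lower in LPS in years 1 and 3 (-0.84 and -1.26, and -1.81 and -0.61). They were higher in year 2 (1.42 and 1.20), and only 1 of 2 had the same combined direction. Cd14 had differences of -0.057, 0.59 and 0.00089, which left no direction.

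**Figure D4:**
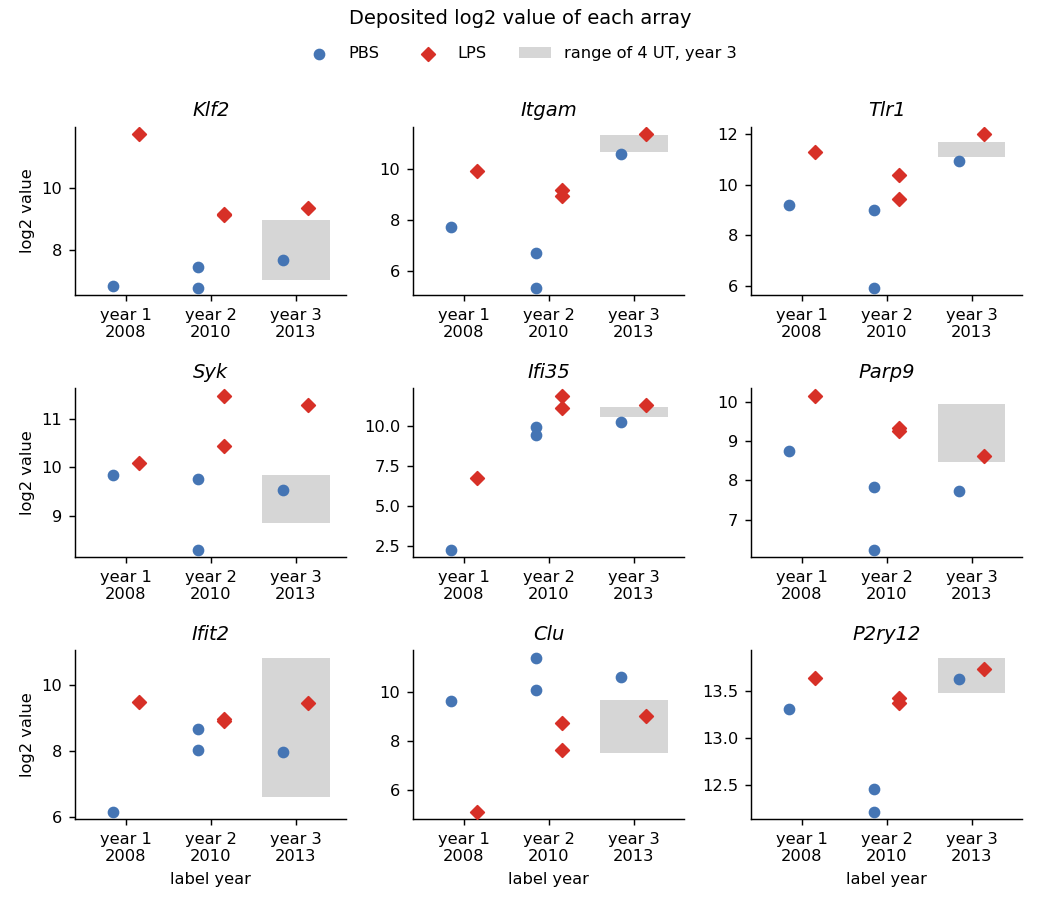
Deposited log2 value (vertical axes, a separate range for each gene) of 9 genes in each PBS array (blue circles) and LPS array (red diamonds) by label year; the grey band is the range of the 4 UT arrays of year 3. For Klf2 and Syk every LPS array lies above every PBS array, and for Clu below; Itgam, Tlr1, Ifi35 and Parp9 separate within years only.

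Itgam, the alpha chain of complement receptor 3 (CD11b), is both a microglial identity gene and a receptor for opsonised particles. It read 9.91, 8.93, 9.16 and 11.35 in LPS and 7.71, 5.34, 6.69 and 10.58 in PBS. LPS arrays were above PBS arrays in each year, and levels of both groups in year 3 were above those of the earlier years. The differences were 2.20, 3.03 and 0.76, and the combined difference was 2.25 ± 0.43 (limma adjusted p = 0.0648). With the years weighted equally it was 2.00. Other identity genes differed mainly in year 2. All 38 tested identity genes had a combined difference above 0 with a median of 0.40, yet the medians were -0.070 in year 1, 0.97 in year 2 and -0.012 in year 3, and only 7 of the 38 were higher in all 3 years (18.4%). P2ry12, the ADP receptor that guides microglial processes, read 13.64, 13.38, 13.43 and 13.73 in LPS and 13.31, 12.22, 12.46 and 13.63 in PBS. Its lowest 2 arrays were the PBS arrays of year 2, and its differences were 0.33, 1.06 and 0.10. Olfml3, a secreted microglial marker, had differences of 0.13, 0.90 and 0.55 with every LPS array above every PBS array (combined 0.62 ± 0.17, limma adjusted p = 0.169). Cd33, an inhibitory sialic acid receptor, had differences of 0.48, 1.65 and 0.55.

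Several defining microglial genes differed most in year 2, with differences of either sign in the other years. Cx3cr1, the fractalkine receptor whose reporter was used for the sort, had differences of -0.075, 1.47 and 0.12, which differed between years (limma F test adjusted p = 0.0305). Its other probe set gave -1.35, 2.19 and 0.053. For Csf1r, the receptor on which microglial survival depends, the differences were -0.066, 0.45 and 0.027, and 2 other probe sets were lower in year 1 (-0.41 and -0.56). Tyrobp gave -0.20, 0.40 and 0.035, Aif1 (the cytoskeletal protein IBA1) gave 0.0018, 0.55 and -0.14, and Tmem119 gave 0.13, 1.88 and -0.37. Trem2, the lipid-sensing receptor that signals through DAP12, gave 0.31, 2.02 and -0.19. In each of these 6 genes year 2 held the largest difference, in the year whose PBS arrays had the lowest microglial mean.

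Signalling genes downstream of such receptors were mixed. Syk, the tyrosine kinase recruited by phosphorylated DAP12 and Fc receptor chains, read 10.10, 10.44, 11.46 and 11.28 in LPS and 9.84, 8.31, 9.77 and 9.54 in PBS. Its groups did not overlap, and the differences were 0.26, 1.91 and 1.74 (combined 1.45 ± 0.53, limma adjusted p = 0.274). The year 3 LPS array was above the UT range (8.86 to 9.84), and 2 of 3 other Syk probe sets had the same combined direction. Plcg2, the phospholipase activated by Syk, had differences of 0.21, 1.57 and 0.19. Fyn, a Src-family kinase, was lower in all years (-0.86, -0.39 and -1.03), as was the adaptor Grb2 (-0.20, -0.26 and -0.42), whose other probe set had a combined difference of 0.073. Over the 26 tested genes of DAP12 and TREM2 signalling the medians were -0.16, 1.30 and -0.13 in the 3 years. Lair1, an inhibitory collagen receptor, was higher in every LPS array than in any PBS array, with 12.21, 11.94, 12.15 and 12.05 against 10.995, 10.43, 11.11 and 11.62. The year 3 difference of Lair1 (0.43) placed the PBS array below the UT range while the LPS array lay within it.

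Interferon-response genes had, of the 20 immune lists, the largest share of bright genes higher in every year. Of 41 tested, 36 had a combined difference above 0, and 6 of 19 bright members were higher in all 3 years (31.6%, against 9.18% of all bright genes) and 1 was lower (5.26%, against 17.8%). The list median was 0.68 for the combined difference, but 0 in year 1, 1.05 in year 2 and 0.082 in year 3, and none of the 41 passed the limma threshold. Ifi35, an interferon-induced leucine zipper protein, read 6.75, 11.89, 11.17 and 11.31 in LPS and 2.28, 9.98, 9.45 and 10.29 in PBS. Both year 1 arrays were far below the others, and the LPS array was the higher in each year (4.47, 1.82 and 1.03; combined 2.28 ± 0.76, limma adjusted p = 0.238). In year 3 the LPS array was above the UT range of that year (10.61 to 11.24) and the PBS array below it. Over all 6 UT arrays Ifi35 reached 12.07, above every LPS array. The 2 other Ifi35 probe sets went the other way in years 1 and 3 (-1.81 and -1.55, and -0.77 and -0.52) and were higher in year 2 (2.45 and 2.63). Parp9, a mono-ADP-ribosyltransferase partner that promotes interferon signalling, read 10.15, 9.33, 9.26 and 8.62 in LPS and 8.74, 7.82, 6.23 and 7.73 in PBS. Its differences were 1.41, 2.27 and 0.89 (combined 1.71 ± 0.50, limma adjusted p = 0.194). Only the year 3 LPS array of Parp9 was lower than a PBS array, that of year 1. Ifit2, which binds viral RNA, was higher in every LPS array (9.49, 8.93, 8.97 and 9.46) than in any PBS array (6.17, 8.67, 8.03 and 7.97), and its differences were 3.32, 0.60 and 1.49. The UT arrays of year 3 ranged more widely for Ifit2, from 6.61 to 10.83, and both treated arrays of year 3 lay inside that range. Ifi27l2a had differences of 1.17, 0.89 and 0.47, and the second year 2 replicate was the lowest array of each group (6.65 and 6.00). Ifitm2, an antiviral membrane protein, was the lower member (-1.26, -0.26 and -0.56).

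The windows of 250 bases before the RefSeq starts were searched on both strands for the letters GAAANNGAA, the core of the element bound by interferon-stimulated factors. They were also searched for GGGNNTTTC, the start of a restricted form of the sequence bound by NF-kB. Other forms of that sequence were not searched, so a window without these letters may still hold such a site. The windows are on GRCm38.p6 and 33 of the 42 higher immune genes were matched by symbol. The first motif occurred in 6 of the 33 (18.2%), against 8.18% of 27025 genes with a window and 7.33% of 4529 bright genes. The second occurred in 2 of the 33 (6.06%), against 4.35% and 4.24%. The 33 came from the immune lists, which include the interferon-response list, and the share among the other immune-list genes was not computed. Nothing is therefore read from these shares about the LPS response. Ifi35 and Ifit2 held neither in these windows. Ifit3 and B2m are shown because they are higher immune genes whose windows hold the letters, a choice made after their values were seen. Capitals mark the matches; the capitals of Ifit3 and the first of B2m are the interferon letters, and the second run of B2m is the NF-kB letters. The window of Ifit3 is chr19:34583279-34583528 on the plus strand and that of B2m is chr2:122147437-122147686 on the plus strand.
Ifit3: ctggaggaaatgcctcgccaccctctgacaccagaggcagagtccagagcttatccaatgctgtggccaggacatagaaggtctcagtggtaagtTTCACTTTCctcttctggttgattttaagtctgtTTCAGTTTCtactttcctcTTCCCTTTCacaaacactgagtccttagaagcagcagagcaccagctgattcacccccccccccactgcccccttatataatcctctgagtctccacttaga
B2m: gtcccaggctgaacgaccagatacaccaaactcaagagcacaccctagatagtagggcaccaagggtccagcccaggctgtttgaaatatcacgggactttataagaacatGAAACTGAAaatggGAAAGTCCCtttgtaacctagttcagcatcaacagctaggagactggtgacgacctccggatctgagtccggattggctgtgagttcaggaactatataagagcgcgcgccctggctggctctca
Ifit3 had LPS minus PBS differences of 0.96 in year 1, 2.48 in year 2 and 0.22 in year 3. A match of letters is a description of the window and shows no binding in these cells.

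Class I antigen presentation genes were higher in part. H2-K1, the heavy chain of a class I molecule that presents peptides to cytotoxic T cells, read 11.57, 10.95, 10.62 and 12.14 in LPS and 9.85, 9.84, 10.14 and 11.67 in PBS. Differences were 1.72, 0.79 and 0.47 (combined 0.94 ± 0.29, limma adjusted p = 0.211), and the year 3 LPS array was above the UT range of 11.11 to 11.89. Of its 3 other probe sets, 2 were higher in every year and 1 was slightly lower in year 3 (-0.16). H2-K1 shares sequence with other class I heavy chains, so that its probe set may also read those. B2m, the light chain common to class I molecules, had differences of 0.015, 0.42 and 0.094. Of the 12 bright genes of the list, these 2 were higher in all years and none was lower.

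Cytokine and chemokine genes varied widely between arrays. Tnf, a leading inflammatory cytokine, read 7.13, 2.85, 2.92 and 4.08 in LPS and 2.67, 2.85, 2.85 and 2.82 in PBS. Among the LPS and PBS arrays it stood out only in the LPS arrays of years 1 and 3, and it was level in year 2. The UT arrays of year 3 ranged from 2.69 to 3.51, but over all 6 UT arrays Tnf reached 6.24, above the year 3 LPS array. Il1b had differences of 0.29, 2.45 and 0.70 (combined 1.47 ± 1.51), with UT arrays of year 3 from 2.88 to 8.97. The chemokines Ccl3 (0.32, 0.88 and 0.16) and Ccl4 (1.24, 2.30 and 0.21), which attract monocytes and T cells, were higher in each year, and both arrays of year 3 lay below the UT range for both genes. Nfkbid, a nuclear regulator of NF-kB that is itself an NF-kB target, read 8.03, 8.94, 9.73 and 9.88 in LPS and 6.15, 7.09, 5.57 and 9.62 in PBS. Its differences were 1.88, 3.0037 and 0.26 (combined 2.04 ± 0.54, limma adjusted p = 0.169). Tnfaip3, the A20 ubiquitin editor that limits NF-kB, had differences of 1.08, 0.85 and 0.070. Over the 35 tested NF-kB and cytokine genes, 25 had combined differences above 0 and 10 below, and 1 passed the limma threshold, in the lower direction. That gene was Ptx3, a secreted pattern-recognition protein, at 2.19, 3.55, 2.40 and 2.19 in LPS and 3.35, 8.30, 8.35 and 4.40 in PBS (combined -3.52 ± 0.57, limma adjusted p = 0.0444). Ptx3 was high only in the PBS arrays of year 2, the arrays with the highest neuronal mean, and its differences of -1.16, -5.35 and -2.20 differed between years (limma F test adjusted p = 0.00205).

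Early response genes were higher in 22 of 26 tested members, with list medians of 0.62 in year 1, 0.52 in year 2 and -0.097 in year 3. Egr2, a zinc finger factor, had differences of 0.61, 0.56 and 0.21, Jun had 0.036, 0.45 and 0.13, and Rhob had 0.34, 0.87 and 0.020. None of the 26 passed the limma threshold.

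Csf3r, which encodes the receptor of the neutrophil growth factor G-CSF, was the single gene that rose past the limma threshold. It read 8.80, 8.16, 8.25 and 10.86 in LPS and 5.92, 5.36, 5.64 and 10.17 in PBS, and the combined difference was 2.25 ± 0.39 (limma adjusted p = 0.0444). LPS arrays were higher in each year (2.88, 2.70 and 0.70). In year 3 the LPS array lay within the UT range of 10.47 to 11.31 and the PBS array below it. The call was lost without any one of the 4 arrays of year 2. Il13ra1, a receptor chain for interleukins of the alternative activation pathway, differed by almost the same amount in each year. It read 10.47, 10.40, 10.37 and 11.20 in LPS and 9.33, 9.06, 9.65 and 10.19 in PBS, with no overlap and differences of 1.14, 1.03 and 1.01 (combined 1.06 ± 0.35, limma adjusted p = 0.236). The year 3 LPS array was above the UT range. Of the 3 other Il13ra1 probe sets, 2 were higher in every year and 1 was not (-1.57, 2.25 and -1.97). Scarb1, a lipoprotein receptor, had differences of 2.38, 0.68 and 0.23.

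Clu had the difference farthest below 0 in every year among the bright immune-list genes that were lower in LPS in all 3 years. It encodes clusterin, a secreted chaperone and complement inhibitor that astrocytes and neurons also make. Clu read 5.12, 8.74, 7.62 and 9.05 in LPS and 9.66, 11.40, 10.10 and 10.63 in PBS, so that every LPS array was below every PBS array. The differences were -4.55, -2.57 and -1.58 (combined -2.82 ± 0.81, limma adjusted p = 0.181). Of the 3 other Clu probe sets, 2 were lower in every year and 1 was higher in year 3 (-1.30, -1.99 and 1.75). The year 3 PBS array was above the UT range (7.50 to 9.67) and the LPS array was within it. C1qc, a chain of the complement recognition protein that microglia make in quantity, had differences of 0.064, 0.72 and 0.11. Cxcr4, the CXCL12 receptor, read 11.72, 11.68, 11.62 and 11.70 in LPS and 12.90, 12.65, 12.86 and 11.77 in PBS, and its year 3 difference was only -0.075.

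The list of oxidative and redox genes had members in both directions. Of its 15 bright genes, 4 were lower in every year (26.7%, against 17.8% of all bright genes) and 2 were higher (13.3%, against 9.18%). Txnrd1, cytosolic thioredoxin reductase, read 8.83, 10.90, 10.20 and 9.96 in LPS and 10.63, 11.53, 11.15 and 10.97 in PBS. Its differences were -1.81, -0.79 and -1.01 (combined -1.10 ± 0.36, limma adjusted p = 0.238), but its 2 other probe sets had combined differences above 0 (0.55 and 0.31). Keap1, the sensor that holds the antioxidant factor NRF2 in check, had differences of -1.03, -0.30 and -0.38, Sod1 had -0.48, -0.17 and -0.18, and Gpx4 had -0.11, -0.018 and -1.52. With median centring the combined difference of Sod1 turned to 0.0095. The proton pump subunit Atp6v1a was lower (-2.65, -0.073 and -0.81), while the accessory subunit Atp6ap1 was higher by 0.35, 0.47 and 0.44. Lgmn, a lysosomal cysteine protease, had differences of 0.57, 1.33 and 0.12.

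Mitochondrial respiration genes leaned lower as a group on the deposited scale. Of 26 bright members 11 were lower in all 3 years (42.3%, against 17.8% of all bright genes) and none was higher. Over the 28 tested members the medians were -0.16, -0.22 and -0.12, although the combined median of -0.13 was close to the -0.12 of all tested genes and turned to 0.13 with median centring. Ndufa4, a cytochrome oxidase subunit, had differences of -0.76, -0.56 and -0.55, Uqcrc2 had -0.96, -0.33 and -0.34, and Atp5b had -0.34, -0.82 and -0.32. Cycs, cytochrome c, had -0.23, -0.35 and -0.84.

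Genes of the late cell cycle contained 7 bright members of 24 that were higher in all 3 years (29.2%, against 9.18% of all bright genes) and 2 that were lower (8.33%, against 17.8%). Aurka, the mitotic kinase Aurora A, read 11.21, 8.81, 8.41 and 10.65 in LPS and 8.01, 8.03, 6.53 and 8.64 in PBS. The differences were 3.20, 1.32 and 2.00 (combined 1.96 ± 0.60, limma adjusted p = 0.211), and the year 3 LPS array was above all 4 UT arrays of that year. Over all 6 UT arrays Aurka reached 11.02, above the year 3 LPS array. Ccna2 (1.12, 0.23 and 0.64), Cdc20 (1.23, 0.22 and 0.66) and Ndc80 (2.11, 0.23 and 0.81) were also higher in each year, with smaller differences than Aurka. The other Ccna2 probe set was lower in year 3 (-0.15). Of the 2 other Cdc20 probe sets, 1 was lower in year 3 (-1.22) and 1 was slightly lower in year 2 (-0.095). The combined difference of each of these probe sets was above 0. Over all 31 tested members, 18 had combined differences above 0 and 13 below, and none passed the limma threshold. The list medians were 0.48 in year 1, 0.043 in year 2 and 0.15 in year 3.

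**Figure D5:**
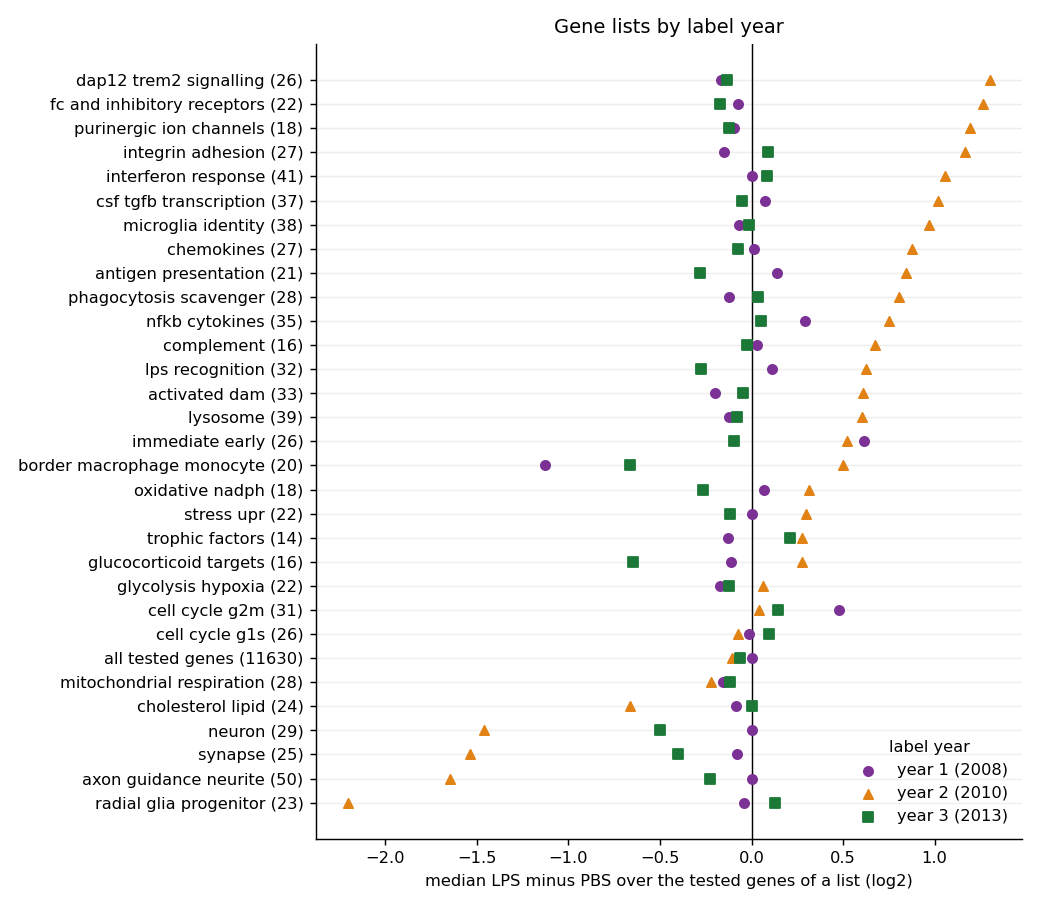
Median LPS minus PBS (log2, horizontal axis) over the tested genes of each list of 14 or more tested genes, and over all tested genes, by label year; the number tested is in parentheses. Immune lists lie above 0 in year 2 and most lie near 0 in years 1 and 3, and neural lists lie furthest below 0 in year 2.

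Markers of border macrophages and monocytes differed in the opposite sense between years. Their array mean was lower in the LPS array in year 1 (-1.25) and year 3 (-0.78) and higher in year 2 (0.31). Of 11 bright members 9 were lower in both year 1 and year 3, and none had a single direction in all 3 years. Of 22 lymphocyte genes 18 were on the array and 4 passed the low-value filter (Cd28, Il7r, Cd79b and Prf1), so that the other genes on the array were near the floor. The mean of the 4 was 6.56 to 8.40 in the LPS arrays and 5.66 to 6.91 in the PBS arrays. It was higher in LPS by 1.20 in year 1, 1.20 in year 2 and 1.49 in year 3, with an exact two-sided permutation p of 0.0833, the smallest possible. Its part in the other differences was not tested. Of the 4 genes 2 were bright, and their median difference was -0.21 in year 1, 1.10 in year 2 and 0.56 in year 3. The bright member other than Prf1 was therefore lower in the LPS array of year 1. Prf1, the pore-forming protein of cytotoxic lymphocytes, was the one bright member with a common direction, at 10.29, 8.92, 8.44 and 8.33 in LPS and 7.91, 8.21, 8.25 and 7.83 in PBS. Every LPS array of Prf1 was above every PBS array, by 2.38, 0.45 and 0.49.

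Outside the immune lists, Mapkapk3 had the largest smallest difference among the genes higher in every year. This kinase lies downstream of p38 and regulates the stability of cytokine transcripts. It read 6.95, 10.34, 10.36 and 10.95 in LPS and 2.91, 8.36, 7.71 and 9.43 in PBS, with differences of 4.04, 2.31 and 1.52 (combined 2.55 ± 0.49, limma adjusted p = 0.0648). With the years weighted equally the combined difference was 2.62. Both year 1 arrays were low, and the year 3 LPS array was above the UT range of 8.59 to 10.18. Plagl2, a zinc finger factor, had differences of 3.39, 1.05 and 1.37, Tbrg4 had 1.67, 1.36 and 1.25, and B4galnt1, a ganglioside synthase, had 0.98, 1.04 and 1.28. The remaining members of the first 10 were Hltf, Dnajb14, Mms19 and Sapcd2, with smallest differences of 0.98, 0.95, 0.94 and 0.92. No other probe set of Hltf (0 of 2), Mms19 (0 of 1) or Sapcd2 (0 of 2) had the same combined direction. Other probe sets of Plagl2 were lower in year 1 (-0.78 and -2.57), and the second of these had a combined difference of -0.32. Another probe set was lower in year 1 for B4galnt1 (-0.97) and in year 3 for Dnajb14 (-0.32) and Tbrg4 (-0.59), with combined differences above 0.

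Of the 975 bright genes lower in every year, 920 were on none of the lists and 21 were on the neural lists. Those 21 were 33.9% of the 62 bright genes of the neural lists, against 17.8% of all bright genes, and 1 of the 62 was higher in all 3 years. With only years 1 and 3 required to share a sign, 22 of the 62 were lower and 6 were higher. Of all bright genes 31.9% were lower and 18.8% higher by that rule, so most of the excess rested on year 2. Fstl1, a secreted glycoprotein of stromal cells, read 4.14, 9.42, 8.75 and 4.74 in LPS and 9.45, 11.17, 11.09 and 8.40 in PBS, with differences of -5.31, -2.05 and -3.66. Tnc, an extracellular matrix protein of radial glia, had -5.46, -1.96 and -2.42, and Zic1, a factor of meningeal and neural precursors, had -6.20, -2.31 and -1.98 with no overlap of the groups. Dpysl5 (-3.50, -1.71 and -2.62) and Draxin (-2.74, -1.59 and -2.32), both of axon guidance, and the growth factors Ptn (-2.87, -2.30 and -1.09) and Mdk (-4.14, -2.18 and -0.9966) followed. Another probe set was higher in LPS in year 1 for Fstl1 (2.21), Zic1 (1.21) and Draxin (1.71). In year 3 another probe set was higher for Tnc (2.53), Dpysl5 (1.38) and Ptn (0.79). The combined difference of each of these probe sets was below 0. Gap43 had -0.45, -0.84 and -1.10, Rtn1 had -0.90, -1.46 and -0.90, Fabp7 had -0.40, -1.15 and -0.30 and Gpm6a had -0.26, -1.25 and -0.91. The other genes of the first 10 were Klhl13, Fam210b, Zfp553, Mex3d, Klhl23 and Nkain1, whose differences nearest to 0 ranged from -1.68 for Nkain1 to -1.99 for Klhl13. The combined difference of Mex3d (-2.08) turned to 0.21 when the neuronal mean entered the fit. The neuronal mean was also lower in the LPS array in each year, and its part in these differences was not tested beyond that fit.

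The limma fit over all 18 arrays called 11 genes, Csf3r higher and 10 lower. The 10 lower genes were Ccdc120, Chrna7, Mapk8ip1, Pcdh19, Pcdhb9, Pcsk5, Ptx3, Pxylp1, Sema3a and Sult4a1, and in none of them was the mean over the 8 arrays bright. Sema3a, a repulsive axon guidance cue, read 2.29, 2.39, 3.0023 and 2.29 in LPS and 9.80, 7.80, 7.19 and 3.21 in PBS (combined -4.51 ± 0.68, limma adjusted p = 0.0344). Chrna7, a nicotinic receptor subunit, read 2.35, 2.43, 4.06 and 2.41 in LPS and 4.14, 5.62, 7.14 and 5.55 in PBS (combined -2.80 ± 0.43, limma adjusted p = 0.0344). In the 4 UT arrays of year 3 none of the 10 lower genes exceeded 2.82, where the floor of the deposited values is 2.19. All 11 calls were lost with only the 8 arrays in the fit, with the neuronal mean as a covariate, without the year 2 arrays or with median centring.

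Single years gave very different numbers of calls in the fit with a mean for each group and year: 1193 genes in year 1 (10.3%), 589 in year 2 (5.06%) and 50 in year 3 (0.43%). In year 2, 152 genes rose and 437 fell, in year 1, 542 rose and 651 fell, and in year 3, 35 rose and 15 fell. The tests of years 1 and 3 assume that the lone arrays vary like the replicated ones. The genes with the lowest p for a difference between years were Gpc6, Gfra4, Lmcd1, Car12 and Cap2, each carried by 1 array or 1 year. Lmcd1 was at 9.68 in the year 1 LPS array and at the floor in all other LPS and PBS arrays, Car12 was at 9.34 in that array, and Gfra4 was at 11.41 in the year 3 LPS array alone. Gpc6 (4.30, -5.46 and 0) and Cap2 (6.52, -4.41 and -0.74) turned sign between year 1 and year 2.

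Against untreated microglia of the same label year, the year 3 LPS array was above all 4 UT arrays for 1107 bright genes (20.2%) and below them for 1251 (22.8%). The year 3 PBS array was below all 4 UT arrays for 533 bright genes (9.71%). Among the 42 immune genes that were higher in all years the year 3 LPS array was above the UT range for 11, and the year 3 PBS array was below it for 14. These genes were chosen with LPS above PBS in year 3, which favours both counts, so nothing is read from them.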

How the data were processed

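The authors deposited 1 table of log2 intensities with 45101 probe sets and 18 arrays, made by RMA per the submitters' processing notes (no version or genome build given in the sources used here). Array medians differ in the deposited table and the variant of RMA is not stated, so other scalings were tried. No column was left unmapped. Through the platform annotation 34958 probe sets had 1 gene symbol, 932 several and 9211 none, and 34754 were matched to RefSeq by Entrez identifier. Each of 18194 genes took its probe set with the highest mean, and 11630 genes above the 40th percentile (log2 2.494) were tested.

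LPS minus PBS was fitted with limma 3.58.1 in R 4.3.3 on all 18 arrays, with group and label year and an intensity trend (11 residual degrees of freedom), two-sided, Benjamini-Hochberg adjusted over all tested genes at 0.05. A second fit with a mean for each group and year gave each year's contrast and the F test of their difference (9 residual degrees of freedom). Only the first fit was tested on simulated data. Arrays count as replicates because cells were pooled by dam, and p-values measure only the spread between these arrays, whose number limits the precision.

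Genes were named by a rule: among bright genes with one sign in 3 years, the 15 (immune lists) or 10 (other genes, without predicted or clone names) with the largest smallest difference in each direction; the calls; up to 4 genes a list; fixed marker genes (Il6 was not among the tested genes); and the 5 lowest p of the F test. Ifit3 was added after its values were seen. The arrays, the 38 gene lists and the rules were chosen with earlier results of these data known. Alternatives were other scalings, filters, weights, covariates and left-out arrays.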

Additional observations from a re-analysis of the deposited data

Results flagged for a closer look

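Among 202 groups of 4 arrays (the LPS and the PBS arrays of each named gene), 28 held 1 array whose gap to the others passed Dixon's 95% limit, where chance gives about 1 in 20; for gene lists it was 2 of 76. The LPS array of year 1 was high for Cap2 (9.24), Car12 (9.34), Gpc6 (6.49), Klf2 (11.71), Lmcd1 (9.68) and Sapcd2 (11.66). It was low for Fam210b (2.84), Ifi35 (6.75), Mapkapk3 (6.95), Mdk (7.36), Mex3d (5.17) and the erythroid list mean (3.78). LPS replicate 2 of year 2 was low for Ccl4 (8.99) and high for Chrna7 (4.06), Sema3a (3.0023) and Pcsk5 (2.24, the others at the floor), and LPS replicate 1 of year 2 was high for Ptx3 (3.55). In year 3 the LPS array was high for Cx3cr1 (13.37), Gfra4 (11.41), Il13ra1 (11.20) and Tbrg4 (11.71). The list mean of Fc and inhibitory receptors had a high LPS array too (9.94). Among PBS arrays, that of year 1 was low for Ifi35 (2.28), Pcsk5 (2.19) and Tnf (2.67), and replicate 1 of year 2 was low for Aif1 (13.52). That of year 3 was high for Csf3r (10.17) and H2-K1 (11.67) and low for Grb2 (10.02) and Mapk8ip1 (4.55).

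The response differed between the 3 label years for 13 named genes (limma F test, Benjamini-Hochberg adjusted over all tested genes). Adjusted p was 1.65e-06 for Gfra4, Gpc6 and Lmcd1 and 3.07e-06 for Cap2 and Car12, and those 5 were named for this test. It was 0.000341 for Sema3a, 0.000416 for Pcsk5, 0.000818 for Pcdhb9, 0.00205 for Ptx3 and for Pxylp1, 0.00814 for Pcdh19, 0.0158 for Mapk8ip1 and 0.0305 for Cx3cr1. Of the genes called lower, 7 were among them.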

How the results depend on the processing

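The count of 11 called genes depended on the setting. It was 0 with only the 8 LPS and PBS arrays (1166 at unadjusted p under 0.05, against 1447 in the fit of 18 arrays), 0 without the year term (824), 0 with the neuronal mean as a covariate (1312), 0 with the filter at the 60th percentile (923) and 0 with median centring (1552). It was 1 with no filter, 3 without the variance trend, 3 with quantile normalization, 6 with the mean over probe sets, 5 without the 4 arrays of year 2 (all higher, none shared), 473 with the years weighted equally and 826 with array weights; the last 2 hold all 11. Without single replicates it ranged from 0 to 120, and it was 0 without any one array of year 2. Replicate numbers are shared by LPS and PBS only in year 2 (2 pairs, correlation of deviations 0.53), and the labels do not say that they pair arrays; a replicate block there left 2 calls, both among the 11.

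Bright genes higher and lower in all years numbered 311 and 573 with the mean over probe sets (3335 bright genes), 1167 and 468 with median centring, 226 and 569 with each difference beyond 0.2, 1031 and 1748 with years 1 and 3 only, and 261 and 484 where the year 2 arrays did not overlap. Without single year 2 replicates they ranged from 441 to 575 and from 848 to 1033. For immune lists, 42 higher became 101 with median centring and 20 beyond 0.2, ranging from 39 to 43 without single replicates; 10 lower became 4, 6, 97 with years 1 and 3 only, and 6 where year 2 did not overlap, ranging from 10 to 13. The between-year test gave 1318 genes with only 8 arrays.

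Combined differences reversed without year 2 for Aif1 (-0.071), Cd14 (-0.028), Csf1r (-0.019), Tmem119 (-0.12), Tyrobp (-0.081), Cap2 (2.89) and Gpc6 (2.15). With the neuronal covariate Cap2 (1.68), Cd14 (-0.44), Cxcr4 (0.13), Gpc6 (0.90) and Mex3d (0.21) reversed. Cap2 reversed with equal years (0.46). Among fits without single replicates, Cap2 ranged from -3.19 to 0.11 (above 0 without LPS or PBS replicate 1 of year 2), Car12 from -0.090 (without either year 1 array) to 2.14 and Cd14 from -0.74 to 1.17 (below 0 without LPS replicate 1 or PBS replicate 2 of year 2). Sod1 reversed with median centring (0.0095). The causes were not tested. Label years with 1 array a group limit every year-specific value, and the year 2 PBS arrays had the highest neuronal means of the 18 arrays.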
